A study of Mus musculus with 6 samples.

Results

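The genes described here encode voltage-gated sodium, calcium and potassium channels, the proteins that make nerve cells electrically excitable. They are 32 genes picked by symbol from the 55487 in the deposited table: 7 sodium channel, 8 calcium channel and 17 potassium channel genes. RNA was sequenced from spinal cord of mice at birth (postnatal day 0), dissected at thoracic level, in 3 samples labelled Myt1-/-, called the null below, and in 3 wild-type (WT) samples. Myt1 encodes a neural zinc finger protein that binds DNA, and the study set out to find genes downstream of it in oligodendrocyte differentiation. The labels name no other allele and no treatment, speak of embryos at P0, and leave out how the allele was made and whether replicates were separate animals; the p-values therefore rest on sample-to-sample variation that may be technical. Values are TPM, a transcript abundance corrected for length and expressed relative to the library. Read depth cannot be had from TPM, and errors here are SDs over samples.

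A voltage-gated channel opens when the membrane potential changes. Sodium channel alpha subunits carry the rising phase of the action potential, and beta subunits set their gating and their place in the membrane. Calcium channel alpha1 subunits let in the calcium that triggers transmitter release (P/Q and N types), couples activity to gene expression (L types) or sustains rhythmic firing (T types). Potassium channels repolarise the membrane: the Kv1 group lines axons, the Kv3 group permits fast firing, the Kv4 group carries transient currents in dendrites, and the KCNQ, EAG and ERG groups hold back repetitive firing. In maturing neurons Scn3a is known as a sodium channel of early life, while Scn1a is known for increasing later.

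Myt1 itself was measured at 6.14, 5.36 and 5.28 TPM in the null samples and at 11.5, 11.5 and 13.6 TPM in the WT samples. Every null sample was below every WT sample, the direction the labels give, although a whole-gene value does not separate deleted from remaining exons. Pan-neuronal markers were present in all samples, with the 12 genes of that list summing to between 6816 and 7146 TPM in the null and between 7086 and 7319 TPM in WT. Markers of tissue outside the cord differed between libraries. Skeletal muscle markers (9 of 12 passed the filter) summed to 16.7, 20.9 and 208 TPM in null replicates 1 to 3 and to 17.3, 22.5 and 91.3 TPM in WT replicates 1 to 3, and none of the 12 was at 0 in all samples. Mitochondrially encoded genes made up 8.89% to 9.04% of TPM in the null and 8.64% to 11.3% in WT, with the highest share in WT replicate 1.

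Because Myt1 binds DNA through zinc fingers that recognise a short AAGTT core, the sequence before RefSeq start sites is shown for 3 members that the results turn on. Scn2a and Kcna3 had every null sample above every WT sample, and Kcnh2 had every null sample below. The windows are the 250 bases before RefSeq start sites (GRCm38.p6), read 5′ to 3′ on the gene's strand, and capitals mark AAGTT on either strand (AACTT where it lies on the other). Scn2a has a pair of RefSeq start sites, and the windows before them are chr2:65620519-65620768 and chr2:65668436-65668685 (plus strand). The Kcna3 window is chr3:107035912-107036161 (plus strand) and the Kcnh2 window is chr5:24329592-24329841 (minus strand). None of these 4 windows overlaps an exon of GENCODE M21. The Kcnh2 window lies inside the gene (24319589 to 24351604, minus strand), before an internal start site. The sequence before the annotated 5′ end of Kcnh2 was not examined. The downstream Scn2a window also lies inside its gene.
Scn2a, upstream start: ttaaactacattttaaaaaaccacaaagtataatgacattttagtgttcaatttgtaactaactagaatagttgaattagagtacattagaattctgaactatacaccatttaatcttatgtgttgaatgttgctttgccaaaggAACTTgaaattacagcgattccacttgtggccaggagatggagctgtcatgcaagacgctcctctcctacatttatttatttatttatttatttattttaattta
Scn2a, downstream start: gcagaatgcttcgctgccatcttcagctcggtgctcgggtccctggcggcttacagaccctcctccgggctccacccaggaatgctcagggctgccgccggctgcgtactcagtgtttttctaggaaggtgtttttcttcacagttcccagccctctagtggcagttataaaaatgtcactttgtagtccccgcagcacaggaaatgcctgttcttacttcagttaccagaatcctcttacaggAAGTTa
Kcna3: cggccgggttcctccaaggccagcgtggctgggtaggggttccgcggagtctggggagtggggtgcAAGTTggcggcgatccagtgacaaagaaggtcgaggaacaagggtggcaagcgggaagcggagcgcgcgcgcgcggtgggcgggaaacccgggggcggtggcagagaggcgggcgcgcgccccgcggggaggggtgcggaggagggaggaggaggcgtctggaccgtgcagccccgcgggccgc
Kcnh2: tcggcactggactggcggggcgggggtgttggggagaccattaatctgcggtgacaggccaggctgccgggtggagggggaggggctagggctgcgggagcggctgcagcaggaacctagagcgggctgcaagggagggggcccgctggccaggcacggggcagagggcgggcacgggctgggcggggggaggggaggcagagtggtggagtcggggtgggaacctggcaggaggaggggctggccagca

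The core occurred once in each Scn2a window and once in the Kcna3 window, and did not occur in the internal Kcnh2 window. These windows were printed as examples, and genes with and without the core occurred in both directions. Of the 6 members with the null above, 5 had a window and 3 of them held the core (Scn2a, Kcna3 and Kcnc2, not Kcnd3 or Kcnh7). Of the 6 with the null below, all 6 had a window and 1 held it (Kcna2). Kcnc4, which had the smallest adjusted p, did not hold it. RefSeq windows were found for 24 of the 32 members, 32 windows in all, and 10 of them, from 9 genes, held AAGTT on either strand. Of 32851 windows over all genes, 35.3% held it, so a match in such a window is common. The longer form AAAGTT, which contains the core, was in 0 of the 32 member windows and in 12.4% of all windows. G and C made up between 29.6% (Scn2a, upstream start) and 86.4% (Cacna1d) of the bases of the 32 windows. These are matches of letters, and binding was not measured.

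All 32 members passed the filter of a mean of 1 TPM, and 31 were at or above 1 TPM in every sample, the exception being Scn7a in null replicate 3. The members ranged from 2.37 TPM for Scn4b to 112 TPM for Scn3b as means over the 6 samples, and 19 of the 32 averaged at least 10 TPM, as did 63.1% of all genes tested. Summed over all members, the channel genes came to 713, 690 and 698 TPM in the null samples and 673, 708 and 710 TPM in the WT samples. The groups overlapped, and the null mean of 700.1 ± 11.4 TPM differed from the WT mean of 697 ± 20.6 TPM (SD, n = 3 each) by less than either SD. The plot of TPM by gene shows the order of the levels and the spread of each member.

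**Figure D1:**
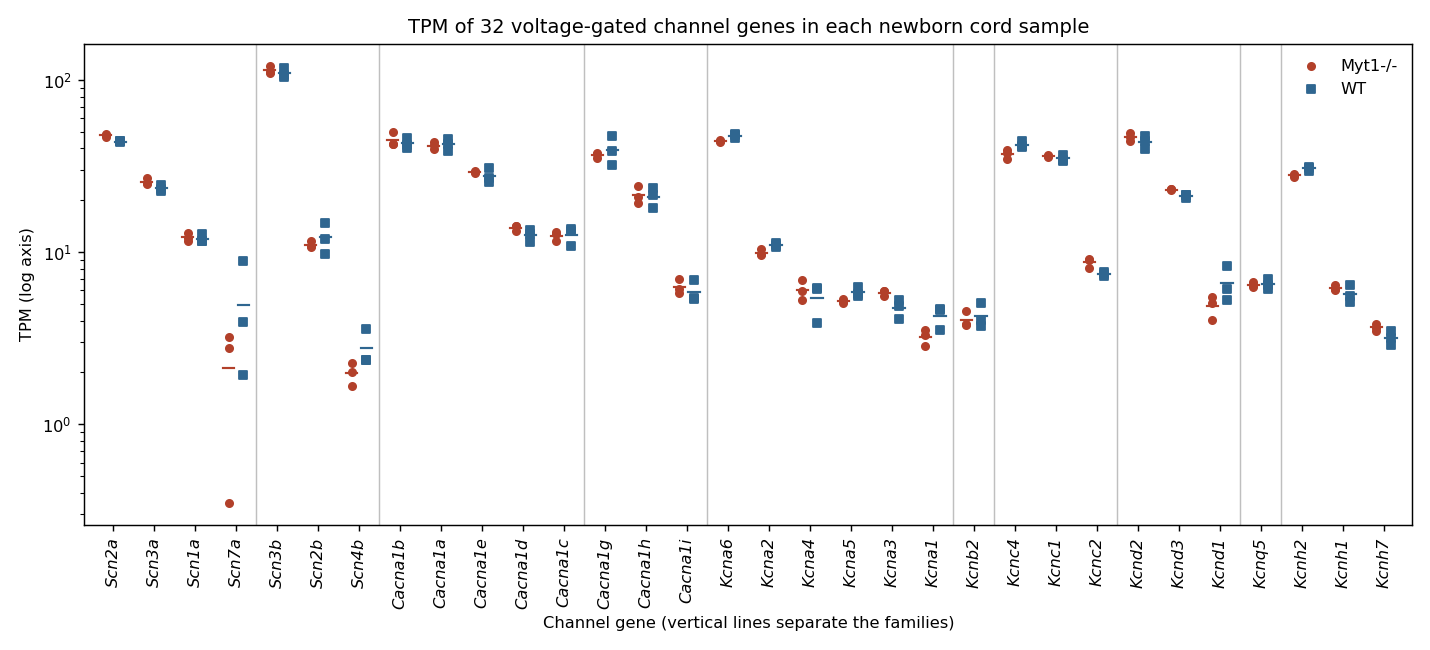
TPM of each of the 32 channel genes (log axis) in the 3 null samples (circles) and the 3 WT samples (squares), with the group mean as a short line and the families separated by vertical lines. Scn3b is the highest member at 112 TPM over all samples, most members lie close together in the 2 groups, and Scn7a spreads from 0.35 to 8.87 TPM.

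No member changed past the test. Across all 15962 genes tested, limma on log2(TPM + 1), with Benjamini-Hochberg adjustment, called 0 genes (0%) at an adjusted p under 0.05, and the smallest adjusted p among the members was 0.669, for Kcnc4. At an unadjusted p under 0.05 there were 2 members, which is 6.25% of the 32 against 7.45% of all genes tested. They were Scn2a, higher in the null, as were 4.32% of all genes, and Kcnc4, lower in the null, as were 3.13%. Over the 15 alternatives Scn2a kept an unadjusted p under 0.05 in 1 and Kcnc4 in 7. The median member differed by 0.028 on the log2 scale, null minus WT, and the median of all genes tested by 0.025. Of the members, 17 had a positive and 15 a negative difference, and 57.5% of all genes tested had a positive one.

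The sizes that these samples allow were small for most channels. For 27 of the 32 members the 95% interval of the difference, from the limma fit, lay within a 1.5-fold change in either direction, as it did for 74.8% of all genes tested. The 5 members whose interval reached past 1.5-fold were Scn7a, Scn4b, Kcna1, Kcna4 and Kcnd1. These folds are on the log2(TPM + 1) scale, which understates changes of low genes. The members varied little between samples, with a median coefficient of variation of 4.87% in the null and 8.15% in WT, against 7.59% in the null and 10.6% in WT over all genes tested.

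**Figure D2:**
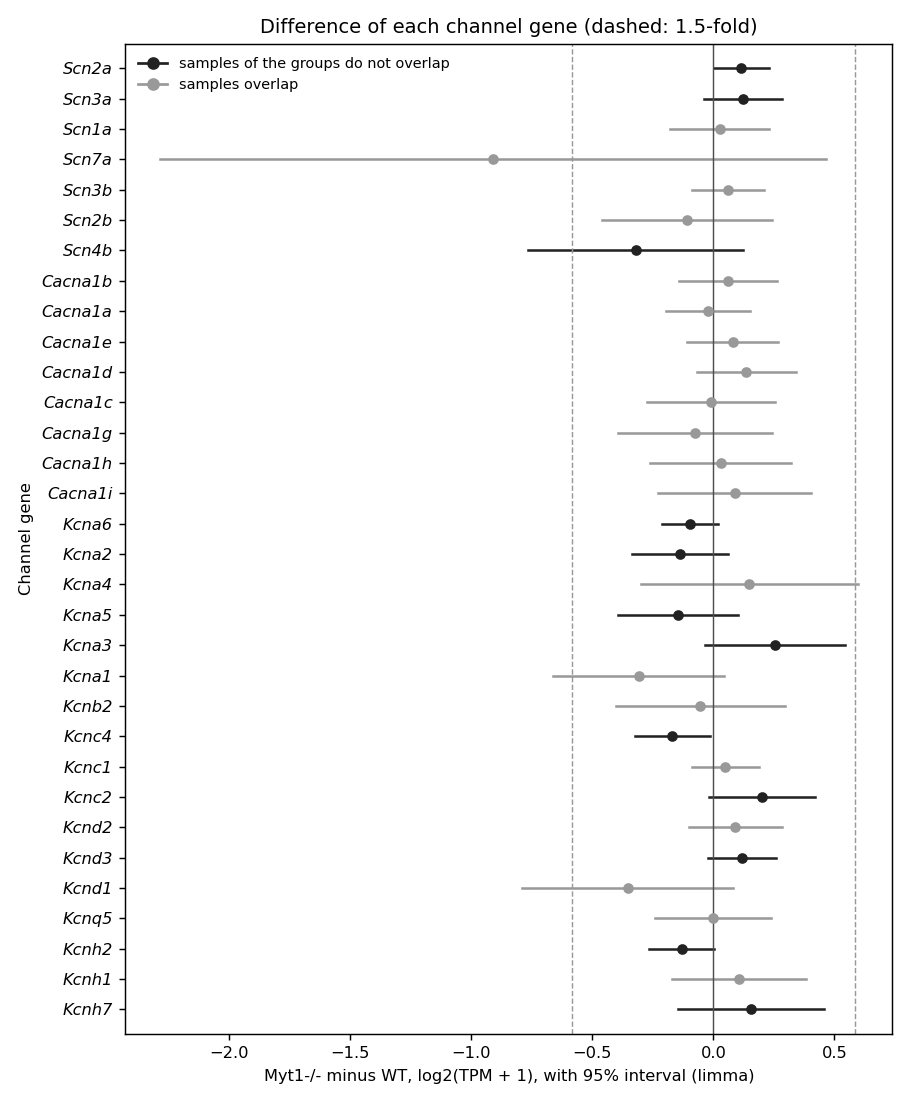
Log2(TPM + 1) of each channel gene in the null minus that in WT, with its 95% interval from limma; dark points are genes whose null and WT samples do not overlap, and dashed lines mark 1.5-fold. For 27 of the 32 genes the whole interval lies between the dashed lines, and Scn7a has the widest, from -2.29 to 0.47.

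Although no difference passed, null and WT samples were apart, with no overlap, in 12 of the 32 members (37.5%), 6 with the null above and 6 with the null below. Over all genes tested 14.3% did not overlap, 8.91% with the null above and 5.38% below, and among 40 other channel genes 5 (12.5%) did not. The members were chosen with results of these samples known, so this share is a description. The 6 with the null above were Scn2a, Scn3a, Kcna3, Kcnc2, Kcnd3 and Kcnh7, where the null mean was between 1.085 and 1.23 of the WT mean. The 6 with the null below were Scn4b, Kcna2, Kcna5, Kcna6, Kcnc4 and Kcnh2, where the null mean was between 0.720 and 0.934 of the WT mean. Their adjusted p by limma lay between 0.669 and 0.766. Among markers of other cells, the myelinating oligodendrocyte list was lower in the null, while the sums of the precursor and astrocyte lists overlapped. Of the 9 myelinating oligodendrocyte markers that passed the filter (10 listed, none at 0 in all samples), 7 were below every WT sample, and the list summed to between 159 and 194 TPM in the null and between 390 and 808 TPM in WT. Of the oligodendrocyte precursor markers 9 of 10 passed, 4 below and 1 above every WT sample, with sums of 313 to 354 TPM in the null and 311 to 356 TPM in WT. Of the 10 astrocyte markers, all of which passed, 3 were below, with sums of 1562 to 1816 TPM in the null and 1713 to 2153 TPM in WT, and of the 12 pan-neuronal markers 2 were below. The part of these cells in the channel values was not tested, and in whole tissue fewer cells of a type cannot be told apart from less RNA per cell.

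Among the sodium channel alpha subunits, Scn2a, the main alpha subunit of immature axons (chromosome 2, 65620771 to 65767447, plus strand, GRCm38), was at 48.3, 46.3 and 48.0 TPM in the null samples and at 43.4, 44.0 and 44.1 TPM in the WT samples. All null samples were above all WT samples, with a log2 difference of 0.11 (SE 0.048, 95% interval 0.0013 to 0.23) and an adjusted p of 0.671 by limma. Scn3a, the early-life alpha subunit, which lies beside it on the minus strand (65457118 to 65567627), was at 24.8, 25.0 and 27.0 TPM in the null and 22.6, 23.2 and 24.6 TPM in WT. It too had every null sample above every WT sample, by a narrow margin, with a log2 difference of 0.12 (SE 0.068). Scn1a, the alpha subunit best known from inhibitory neurons, overlapped between groups at 12.2 ± 0.670 TPM in the null and 11.96 ± 0.656 TPM in WT (SD, n = 3 each).

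Among the 4 alpha subunits that are members, the shares of Scn2a, Scn3a and Scn1a were close in both groups. Scn2a made up 54.4% ± 0.489 of the TPM of the 4 members in the null and 52.2% ± 2.504 in WT, Scn3a 29.3% ± 1.54 and 27.9% ± 0.767, and Scn1a 13.9% ± 0.486 and 14.2% ± 1.22 (SD, n = 3 each, null given before WT). Each difference was smaller than the larger of its SDs.

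Scn7a, the sodium-sensing alpha subunit of glia and sensory nerves, stood apart. It was at 3.22, 2.79 and 0.35 TPM in the null samples and at 3.94, 1.94 and 8.87 TPM in the WT samples. The groups overlapped, the lowest value was in null replicate 3 and the highest in WT replicate 3, and the log2 difference was -0.91 (SE 0.58, 95% interval -2.29 to 0.47, adjusted p = 0.732 by limma). Without null replicate 3 the difference was -0.39, without WT replicate 3 it was -0.45, and without both it was 0.070.

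The sodium channels of pain-sensing neurons, which are not among the 32, had the same extremes. Scn10a was at 6.86, 7.0 and 0.04 TPM in the null and 10.9, 5.39 and 22.2 TPM in WT, Scn11a was at 3.65, 3.26 and 0.14 TPM in the null and 5.52, 2.91 and 8.45 TPM in WT, and Scn9a was lowest in null replicate 3 at 3.86 TPM and highest in WT replicate 3 at 10.2 TPM. The mean log2 level of 11 sensory ganglion markers, all of which passed the filter, lay at -0.28, -0.36 and -1.61 from the WT mean in the null samples and at 0.057, -0.63 and 0.57 in the WT samples. That list summed to 303, 289 and 147 TPM in the null and 434, 256 and 554 TPM in WT, with none of its genes at 0 in all samples and none of its 11 genes separating the groups. Schwann cell markers (12 of 12 passed, 4 below every WT sample) summed to between 113 and 173 TPM in the null and between 178 and 302 TPM in WT. Motor neuron markers (10 of 10 passed, 1 below and 1 above every WT sample) summed to 262, 238 and 170 TPM in the null and 349, 249 and 431 TPM in WT, mostly from Prph, which with Isl1 is also on the sensory ganglion list. Without these 2 shared genes the list summed to 113, 106 and 98.1 TPM in the null and 132, 114 and 135 TPM in WT. Of the genes left, Slc5a7 (12.9 TPM) and Isl2 (1.44 TPM) were lowest in null replicate 3. Chat, Slc18a3, Mnx1, Chodl, Lhx4 and Aldh1a2 were lowest in other samples. The part of ganglion, nerve or motor neuron content in the level of Scn7a was not tested.

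**Figure D3:**
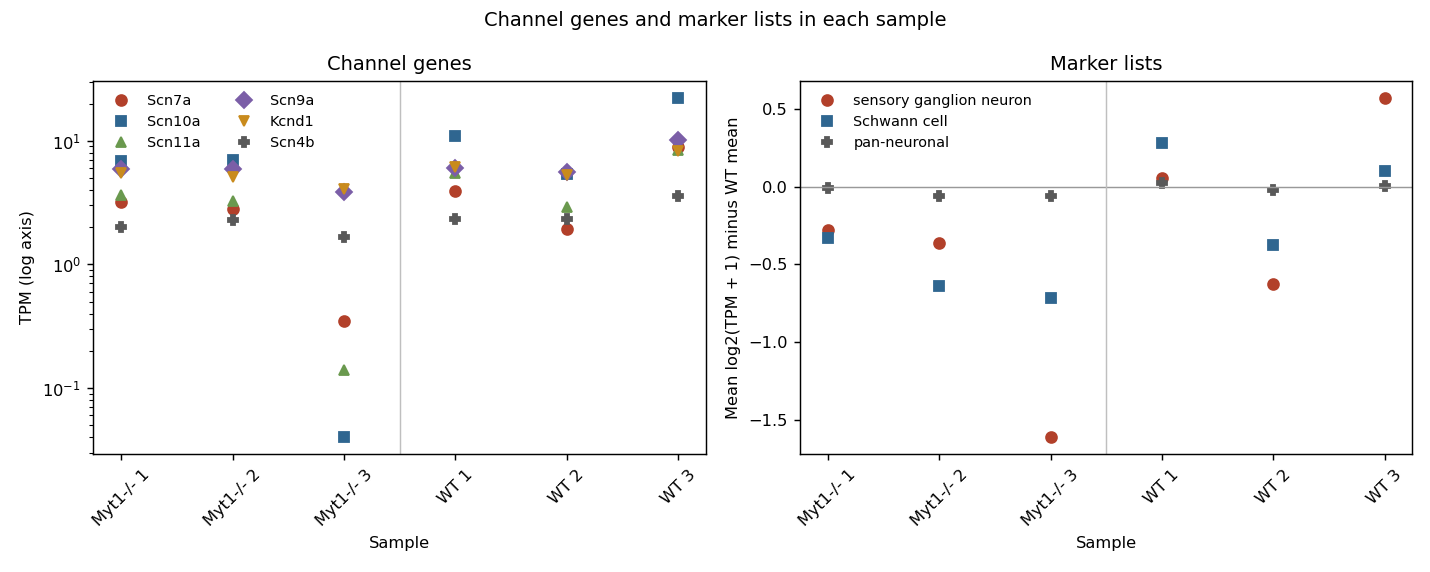
Left, TPM (log axis) of Scn7a, Scn10a, Scn11a, Scn9a, Kcnd1 and Scn4b in each sample; right, mean log2(TPM + 1) of sensory ganglion, Schwann cell and pan-neuronal marker lists in the same samples, relative to the WT mean. The sensory ganglion list and the 6 genes are all lowest in null replicate 3 and highest in WT replicate 3, while the pan-neuronal list stays between -0.061 and 0.022.

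Of the 32 members 4 were highest in WT replicate 3 and lowest in null replicate 3, namely Scn7a, Scn4b, Kcna2 and Kcnd1, as were 3.35% of all genes tested. Among 40 other channel genes that passed the filter there were 5 such genes, Scn9a, Scn10a, Scn11a, Kcnh6 and Kcnab2. This order was looked for after the values were seen. Kcnd1, a Kv4 subunit, was at 5.50, 5.07 and 4.06 TPM in the null and 6.14, 5.26 and 8.33 TPM in WT, a log2 difference of -0.35 (SE 0.18) that was -0.090 without both libraries numbered 3. Scn4b, a beta subunit that promotes resurgent sodium current, was at 2.01, 2.28 and 1.67 TPM in the null and 2.35, 2.35 and 3.58 TPM in WT. Its groups did not overlap, but the gap between them was 2.28 against 2.35 TPM, and the log2 difference was -0.32 with all libraries and -0.092 without both libraries numbered 3.

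The other beta subunits were Scn3b and Scn2b. Scn3b, the beta subunit of developing neurons and the highest member, was at 121, 112 and 109 TPM in the null and 107, 117 and 104 TPM in WT. The groups overlapped, and the 95% interval of the log2 difference was -0.089 to 0.21. Scn3b made up 89.7% ± 0.746 of the TPM of the 3 beta subunits in the null and 88.0% ± 2.60 in WT (SD, n = 3 each). Scn2b, a beta subunit that rises as neurons mature, was at 10.8, 11.6 and 10.8 TPM in the null and 9.73, 11.96 and 14.8 TPM in WT, where the WT samples alone spanned the null values.

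In all 8 calcium channel genes the null and WT samples overlapped. Over all genes tested only 14.3% did not overlap, so overlap in these 8 is not particular to calcium channels. The highest of the 8 members were Cacna1b, the N-type channel of nerve terminals, at 44.7 ± 4.12 TPM in the null and 42.8 ± 3.10 TPM in WT, and Cacna1a, the P/Q-type channel of nerve terminals, at 41.4 ± 1.94 TPM in the null and 42.2 ± 3.18 TPM in WT (SD, n = 3 each). Sample by sample, Cacna1b was at 42.5, 42.2 and 49.5 TPM in the null and 42.1, 40.2 and 46.2 TPM in WT. Cacna1e, the R-type channel, averaged 29.2 ± 0.480 TPM in the null and 27.7 ± 2.60 TPM in WT. The L-type channels were lower: Cacna1d was at 13.8 ± 0.493 TPM in the null and 12.5 ± 0.951 TPM in WT, and Cacna1c at 12.4 ± 0.783 and 12.6 ± 1.55 TPM, null before WT.

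The T-type channels, which open near the resting potential, were led by Cacna1g at 37.9, 37.3 and 35.3 TPM in the null and 31.9, 47.2 and 38.9 TPM in WT. Its WT samples spread over a wider range than the null samples, and both extremes were WT. Cacna1h was at 21.4 ± 2.43 TPM in the null and 20.99 ± 2.78 TPM in WT, and Cacna1i at 6.30 ± 0.638 and 5.89 ± 0.835 TPM, null before WT. WT replicate 1 held the lowest of all 6 values for Cacna1a, Cacna1c, Cacna1d, Cacna1e, Cacna1g, Cacna1h and Cacna1i. It was also the library with the highest mitochondrial share and with the lowest meningeal fibroblast markers (8 of 8 passed, none separating the groups, none at 0 in all samples). These summed to 2337, 2579 and 2520 TPM in the null and 1311, 3085 and 3773 TPM in WT, and their part in the calcium channel values was not tested. Over all 32 members WT replicate 1 held the lowest WT value in 17, as it did in 53.7% of all genes tested. Being lowest among WT samples is a looser measure than being lowest of all 6. For the stricter measure the share over all genes was not counted. The sum of the 8 calcium channels was 203, 205 and 210 TPM in the null and 184, 214 and 214 TPM in WT.

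The Kv1 group of axonal potassium channels held 4 of the 12 members without overlap, 3 below and 1 above WT. That is 66.7% of its 6 genes, as in the Kv3 group and in the EAG and ERG group. Over all genes tested 14.3% did not overlap, 5.38% with the null below and 8.91% above. The members were chosen with results known, so the group shares are descriptions. Kcna6, which supplied most of the group, was at 44.3, 43.6 and 44.95 TPM in the null and 46.2, 48.3 and 47.7 TPM in WT, a log2 difference of -0.097 (SE 0.048, adjusted p = 0.690 by limma). Kcna2, a subunit of channels beside the nodes of myelinated axons, was at 10.5, 9.71 and 9.57 TPM in the null and 11.04, 10.7 and 11.4 TPM in WT. Kcna5 was at 5.33, 5.09 and 5.19 TPM in the null and 5.74, 6.31 and 5.56 TPM in WT. In each of these genes all 3 null samples were below all 3 WT samples, and the null mean was between 0.886 and 0.934 of the WT mean.

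Kcna1, the partner of Kcna2 beside nodes, missed separation by 0.02 TPM. It was at 3.53, 2.86 and 3.30 TPM in the null and 4.67, 3.51 and 4.59 TPM in WT, a log2 difference of -0.31 (SE 0.15, adjusted p = 0.678 by limma). Kcna3, a subunit found in microglia and T cells as well as in axons, went the other way. It was at 5.56, 5.91 and 5.92 TPM in the null and 4.85, 4.08 and 5.24 TPM in WT, with every null sample above every WT sample and a log2 difference of 0.25 (SE 0.12, adjusted p = 0.678 by limma). Microglial markers (8 of 8 passed, 1 below every WT sample) summed to between 204 and 242 TPM in the null and between 230 and 292 TPM in WT. Kcna4, which gives inactivating currents, overlapped at 6.02 ± 0.801 TPM in the null and 5.41 ± 1.32 TPM in WT (SD, n = 3 each).

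As a sum the 6 Kv1 genes came to 74.5, 74.0 and 74.9 TPM in the null and 76.4, 79.1 and 80.6 TPM in WT. The null mean was 0.946 of the WT mean and the groups did not overlap. The sum of the 3 EAG and ERG genes, with a ratio of 0.955, was also lower in the null without overlap. The sums of all other families overlapped. How often sums of other genes separate was not counted. The share of Kcna3 in the sum was 7.79% ± 0.280 in the null and 6.004% ± 0.736 in WT, and that of Kcna6 was 59.5% ± 0.567 in the null and 60.3% ± 0.981 in WT (SD, n = 3 each).

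**Figure D4:**
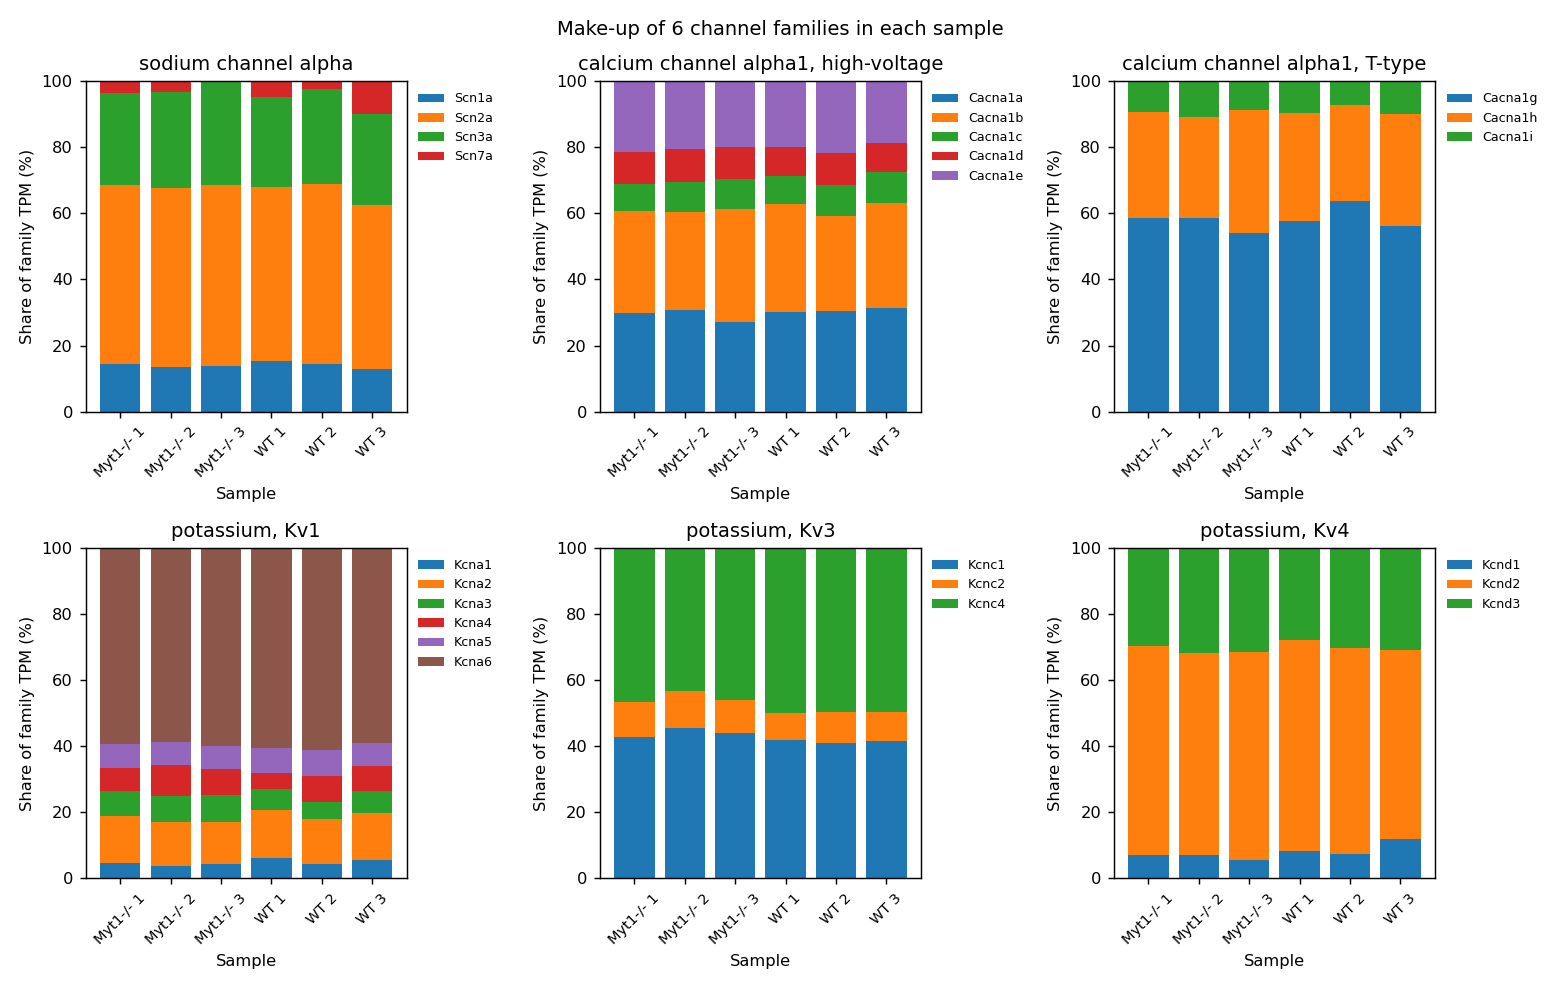
Share of each gene in the summed TPM of its family (percent, bars add to 100) in each null and WT sample, for 6 families. The bars look alike across samples in most families; Kcnc4 is 45.3% of the Kv3 members in the null and 49.8% in WT, and Scn7a ranges from 0.400% to 9.95% of the sodium channel alpha subunits.

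Within the Kv3 group, which allows neurons to fire fast, members differed in opposite directions. Kcnc4 was at 39.2, 34.9 and 37.6 TPM in the null and 44.0, 40.9 and 41.0 TPM in WT. Every null sample was below every WT sample, with a log2 difference of -0.17 (SE 0.065, 95% interval -0.33 to -0.014, adjusted p = 0.669 by limma). Kcnc2 was at 9.08, 8.95 and 8.13 TPM in the null and 7.27, 7.67 and 7.42 TPM in WT, with every null sample above every WT sample and a log2 difference of 0.20 (SE 0.092, adjusted p = 0.677 by limma).

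Kcnc1, the third member of the group, overlapped at 36.2 ± 0.482 TPM in the null and 34.9 ± 1.67 TPM in WT. The make-up of the group followed: Kcnc4 gave 45.3% ± 1.75 of the TPM of the 3 genes in the null and 49.8% ± 0.215 in WT, while Kcnc2 gave 10.6% ± 0.583 in the null and 8.85% ± 0.545 in WT (SD, n = 3 each). Kcnb2, the Kv2 member, a delayed rectifier, overlapped at 4.05 ± 0.436 TPM in the null and 4.26 ± 0.694 TPM in WT.

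Of the Kv4 genes, Kcnd2 was the highest, at 49.4, 43.9 and 46.5 TPM in the null and 47.5, 44.0 and 39.9 TPM in WT, and overlapped between groups. Kcnd3 was the tightest member of the group, at 23.2, 22.8 and 23.2 TPM in the null and 20.7, 21.4 and 21.5 TPM in WT. All its null samples were above all its WT samples, with a log2 difference of 0.12 (SE 0.059, adjusted p = 0.690 by limma).

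Kcnh2, the ERG-type channel best known from the heart, was at 28.6, 27.9 and 27.3 TPM in the null and 30.9, 31.2 and 29.7 TPM in WT. Every null sample was below every WT sample, with a log2 difference of -0.13 (SE 0.056, adjusted p = 0.671 by limma). Kcnh7, another ERG-type gene, was at 3.50, 3.61 and 3.84 TPM in the null and 3.16, 2.88 and 3.49 TPM in WT, with the groups apart by 0.01 TPM. Kcnh1, of the EAG type, overlapped at 6.19 ± 0.259 TPM in the null and 5.70 ± 0.670 TPM in WT, as did Kcnq5, a subunit of the slow M current, at 6.47 ± 0.240 and 6.49 ± 0.435 TPM (SD, n = 3 each, null before WT).

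Several of the genes lie side by side (GENCODE M21, GRCm38), and neighbours did not always differ in the same direction. On chromosome 3, Kcna3 (107036169 to 107038070), Kcna2 (107101146 to 107115005) and Kcnc4 (107438303 to 107459552) lie within 423 kb, and their log2 differences were 0.25, -0.14 and -0.17. On chromosome 6, Kcna5 (126532551 to 126535412), Kcna1 (126640397 to 126646384) and Kcna6 (126708329 to 126740674) lie within 208 kb, all on the minus strand, and their log2 differences were -0.15, -0.31 and -0.097. On chromosome 2, Scn3a and Scn2a share 310 kb with differences of 0.12 and 0.11, and Scn1a and Scn7a, with Scn9a between them, share 514 kb with differences of 0.025 and -0.91. Scn2b and Scn4b lie within 36.4 kb on chromosome 9, with differences of -0.11 and -0.32. The sources used here do not say whether reads were counted by strand, and Kcnh1, Kcnh7, Cacna1c and Cacna1d overlap a gene on the other strand that averaged at least 1 TPM, so reads of such pairs may not be told apart.

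The rest of the pathway was examined as a list of 54 further pore-forming, modifier and auxiliary channel genes, of which 40 passed the filter and 14 did not. None passed the adjusted test; at an unadjusted p under 0.05 there were 5 of 40 (12.5%), 4 higher and 1 lower in the null, against 7.45% of all genes tested.

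Cacnb2, a cytoplasmic calcium channel beta subunit, was at 17.2, 21.2 and 20.5 TPM in the null and 12.7, 15.6 and 13.7 TPM in WT. Its null samples were all higher, by 0.46 on the log2 scale (SE 0.11, adjusted p = 0.669 by limma). Kcnf1, a silent subunit that modifies Kv2 channels, was at 5.36, 5.61 and 5.58 TPM in the null and 4.30, 4.4 and 3.99 TPM in WT, and Kcnv1, another silent subunit, at 4.99, 4.39 and 4.82 TPM in the null and 3.25, 3.94 and 3.60 TPM in WT. Neither overlapped. Kcnq1 was uneven, at 5.85, 0.56 and 4.86 TPM in the null and 0.24, 0.50 and 0.58 TPM in WT, so null replicate 2 lay among the WT samples. Cacna2d3, an alpha2delta subunit, was at 39.2, 39.1 and 40.2 TPM in the null and 38.9, 37.1 and 35.6 TPM in WT, without overlap and with a log2 difference of 0.086. The median of the 40 genes was 0.035, beside 0.028 for the 32 members and 0.025 for all genes tested.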

How the data were processed

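RNA from newborn thoracic spinal cord was sequenced from 3 Myt1-/- and 3 WT samples, grouped by the sample labels; libraries were made from total RNA with a TruSeq kit, per the labels' protocols. The authors deposited TPM per gene with 2 decimals for 55487 genes. RSEM, DESeq2 and the build GRCm38.p6 are named in the submitters' processing notes, with no role; for the aligner, annotation release and strand setting nothing was found in these sources. No counts are held, so depth is unknown. The table has 1 further column of per-sample values with no sample among the labels, not used here.

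The comparison used limma 3.58.1 in R 4.3.3 with a variance trend on log2(TPM + 1), genotype the only term, on the 15962 genes with a mean of at least 1 TPM; 39525 were left out. P-values were two-sided, Benjamini-Hochberg adjusted over all genes tested, with a threshold of 0.05. Log2 differences are null minus WT; ratios are of mean TPM. With 3 samples against 3, an exact permutation test cannot go below 0.1, so none is given. The fit was tested on simulated data. Members and lists were chosen with earlier results of these data known. The text gives values for all 32 members, sample by sample for those whose groups did not overlap, those with an unadjusted p under 0.05 and the highest of each family, and names other channel genes by the same criteria, up to 8, except 1 that is not reported here; Scn7a, Scn9a, Scn10a, Scn11a, Kcnd1, Kcna1, Kcnh6 and Kcnab2 were described by sample or order after their values were seen. Scn8a was named for its level after its values were seen. Of the marker genes, 1 symbol was not found. Alternatives were median-ratio and upper-quartile scaling, a pseudocount of 0.1, no filter, a filter of 1 TPM in 3 samples, no trend, robust empirical Bayes, replicate number as a block and leaving out each sample; leaving out both libraries numbered 3 was added after seeing the data. Python 3.11.15 with matplotlib 3.10.9 was used for figures.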

Additional observations from a re-analysis of the deposited data

How the results depend on the processing

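No member passed an adjusted p of 0.05 in limma under any of the 15 alternatives, and the lowest adjusted p among members in them was 0.528. The count of members at an unadjusted p under 0.05, which was 2, was 3 with median-ratio scaling (Kcna6, Kcnc4 and Kcnh2, all lower) and with no variance trend, 0 with upper-quartile scaling, 1 with a pseudocount of 0.1, 1 with the filter on 3 samples, 1 with robust empirical Bayes, 4 with no filter, and between 0 and 2 with 1 library left out. It was 0 without both libraries numbered 3, an alternative chosen after seeing the data, where the count for the other channel genes was 1; that count, 5 with all libraries, lay between 2 and 6 with 1 library left out. Cacnb2 kept an unadjusted p under 0.05 in 14 of 15 alternatives.

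The member median lay between -0.020 (without WT replicate 1, where the median of all genes was -0.0039) and 0.035 with 1 library left out, and was 0.0038 with median-ratio scaling. The null over WT ratio of the 3 EAG and ERG genes was 0.955, and 0.938 with median-ratio scaling. Members without overlap numbered 12 with median-ratio scaling and 11 with upper-quartile scaling. None of the 12 members without overlap in the main fit changed sign in any alternative (0 of 12). Apart from median-ratio and upper-quartile scaling, this was fixed by the lack of overlap, so it is no test of these genes. Of the other members, 11 changed sign in at least 1 alternative. Without both libraries numbered 3 the count was 15, against 38.6% of all genes with so few samples. Null and WT samples carry the same replicate numbers, with no litter, batch or day given for a number, and same-numbered samples had deviations correlated at 0.031, -0.070 and 0.061, so the numbers were not taken as pairs; with replicate number as a block, the count at an unadjusted p under 0.05 was 1. TPM hold no depth, so counting error at members of a few TPM is not known.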
